A study of Rattus norvegicus with 4 samples.

Results

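The hairpin rno-mir-21 gives miR-21-5p and miR-21-3p, 1 mature miRNA from each arm. It was 1 of 302 named rat hairpins with tags in the data, and its arms were 2 of 348 mature forms with counts. Members were all read sequences (tags) that the files place on rno-mir-21, summed by arm, length and alignment in each library, plus the entry for miR-21-5p in a deposited table of 45 miRNAs. Small RNA of rat (SD) exosomes was sequenced from 2 sources with 2 libraries each, adipose explants (Exo-AT) and adipose stem cells in culture (Exo-ADSCs). Exo-AT came from minced tissue of animals aged 4 weeks, stirred for 3 days at 100 rpm in 75 mL of α-MEM with penicillin and streptomycin. Exo-ADSCs came from passage 3 cells, washed and kept for 3 days in α-MEM with the same antibiotics and no serum. No genotype or further treatment separated the groups. Explants hold every cell type of the tissue, and the RNA is that of exosomes. Fewer cells of a type, less RNA per cell and less of it released in exosomes thus cannot be told apart.

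miR-21-5p is among the most abundant miRNAs of fibroblast-like, vascular and inflamed tissues, and is best known for repressing inhibitors of growth and survival such as Pdcd4. Drosha and Dicer cut a hairpin out of its primary transcript, and an Argonaute protein then keeps 1 strand, the guide, while the other strand is usually lost. For miR-21 the guide is the 5p strand. The seed, bases 2 to 8 of the mature strand, sets which transcripts are recognised, so a change at the 5′ end changes the seed, whereas the 3′ end is trimmed and extended with little effect on it.

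RefSeq (GRCr8) places the hairpin on the minus strand of chr10:71902600-71902691, with miR-21-5p at chr10:71902653-71902674 and miR-21-3p at chr10:71902615-71902636, and lists Vmp1 as the neighbouring gene that follows. The mature strands are shown with the seed in capitals, and the hairpin with both mature strands in capitals.
miR-21-5p: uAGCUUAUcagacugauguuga
miR-21-3p: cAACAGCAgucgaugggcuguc
rno-mir-21: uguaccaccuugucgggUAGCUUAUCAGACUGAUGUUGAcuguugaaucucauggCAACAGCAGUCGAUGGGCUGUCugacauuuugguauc
Of 693 rat mature miRNAs in the RefSeq table, miR-21-5p was the only one with the seed AGCUUAU and miR-21-3p the only one with AACAGCA. None of the miR-21 tags in the 3 libraries was shared with another hairpin, so its counts were not divided.

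Tags of 3 libraries were analysed, out of 4. Hairpins took 15200 and 181049 counts in Exo-AT replicates 1 and 2 and 715114 in Exo-ADSCs replicate 2, of which 60.1%, 75.1% and 13.6% lay on named hairpins and the rest on hairpins predicted by the authors. For Exo-ADSCs replicate 1 no tags were analysed here, and its values come from the authors' deposited table, so tag values of Exo-ADSCs rest on 1 library. Both Exo-AT tag files carry the same sample name inside, and the labels name no separate animal or culture for each replicate, so a p-value here reflects the spread between these samples alone, which may be technical. The columns of the authors' deposited table go against the file labels for Exo-AT. The column headed Exo-AT replicate 1 equalled 5.44 times the counts of the file labelled Exo-AT replicate 2 in 34 of 43 miRNAs (within 1%). The column headed Exo-AT replicate 2 equalled 62.4 times the most common tag alone of the file labelled Exo-AT replicate 1 in 15 of 24. Tag counts below are named by the file labels, and exchanging both Exo-AT names would leave the groups as they are.

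Marker lists of the cells these samples could hold were read as TMM-scaled CPM (TMM CPM, where CPM is the usual unit of counts scaled to a fixed library total and TMM is the trimmed-mean scaling of edgeR). The stromal list (miR-143, miR-145, miR-199a, miR-214, miR-22 and miR-10b) summed to 324155 and 378015 TMM CPM in Exo-AT, against 464938 in Exo-ADSCs. Of all 183 tested miRNAs, 19.1% were called higher and 19.1% lower in Exo-AT with TMM scaling (adjusted p under 0.05, edgeR), and the marker counts are to be read against those shares. Of 9 tested stromal forms 0 were higher and 3 lower, and of 6 adipocyte forms 2 were higher and 3 lower (21737 and 26610 TMM CPM in Exo-AT, against 13730 in Exo-ADSCs). The endothelial miR-126a forms summed to 2767 and 4721 TMM CPM in Exo-AT, against 499 in Exo-ADSCs, with 1 of 2 higher. Sums of the erythroid list were 36834 and 154497 in Exo-AT, against 50789 in Exo-ADSCs (1 of 2 higher), and of the leukocyte list 474 and 1054 in Exo-AT, against 234 in Exo-ADSCs (1 of 3 higher). Most of each erythroid sum was miR-486-5p (36676 and 153191 TMM CPM in Exo-AT, against 49869 in Exo-ADSCs). Of its counts 96.6% and 96.3% had 21 to 23 nt in Exo-AT, against 12.1% in Exo-ADSCs. Those aligned without mismatch or indel were 51.7% and 57.9%, against 6.91%, so the erythroid sums compare unlike forms. In the stromal list, 72.5% and 77.4% of miR-10b-5p counts had 21 to 23 nt in Exo-AT, against 12.9% in Exo-ADSCs. For miR-143-3p it was 83.2% and 82.7%, against 61.3%. The stromal sums thus also compare forms of unlike length. In the leukocyte list miR-142-5p had 2 and 35 counts in Exo-AT, against 15 in Exo-ADSCs, miR-150-5p had 2 and 69, against 0, and miR-223-3p had 0 and 7, against 0. miR-155-5p of the same list had 2 and 27 counts in Exo-AT, against 0 in Exo-ADSCs. The leukocyte form called with TMM scaling, miR-150-5p, entered the test through its Exo-AT counts alone. In the muscle list miR-1 and miR-133b had no counts under these names, and miR-133a-3p, its 1 tested form, had 0 and 21 counts in Exo-AT, against 2 in Exo-ADSCs, and was not called. miR-1b-3p, which the list's name miR-1 did not take in, was at 1423 and 1204 TMM CPM in Exo-AT, against 46.8 in Exo-ADSCs (log2 fold change 4.74, adjusted p = 1.02e-05, edgeR). The liver miR-122-5p was at 474 and 429 TMM CPM in Exo-AT, against 343 in Exo-ADSCs, and was not called.

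These calls moved with the scaling. With DESeq2 size factors 12.6% of all tested were higher and 16.4% lower, with total counts 25.1% were higher and 10.4% lower, and with scaling to all counts on hairpins, a choice made after seeing the data, 59.6% were higher and 2.73% lower. Under these 3 scalings in turn, the stromal list had 0 higher and 2 lower, 1 higher and 2 lower, and 4 higher and 0 lower. The adipocyte list had 2 higher and 3 lower, 2 higher and 0 lower, and 4 higher and 0 lower. The erythroid list had 0, 1 and 2 of 2 higher, the leukocyte list 0, 1 and 3 of 3 higher, and miR-126a 1, 2 and 2 of 2 higher. In these 3 lists 0 were lower under each. The part of these cells in the miR-21 values was not tested.

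The main comparison asked whether exosomes of the tissue and of its stem cells carry different amounts of the miR-21 strands. miR-21-5p was abundant in every library. With TMM scaling over named miRNAs it was lower in Exo-AT than in Exo-ADSCs, while as a share of all counts on hairpins it was higher in Exo-AT. miR-21-3p, the strand that is usually lost, had counts in Exo-ADSCs replicate 2 and in neither Exo-AT library.

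The counts of miR-21-5p were 297 and 3213 in the Exo-AT replicates, against 2843 in Exo-ADSCs replicate 2. It ranked sixth of 140, seventh of 244 and eighth of 264 detected miRNAs in these libraries. Its neighbours in that order were miR-486-5p (464 counts) above and miR-99b-5p (292) below in Exo-AT replicate 1. They were miR-99b-5p (3371) and miR-100-5p (2569) in Exo-AT replicate 2, and miR-486-5p (3200) and miR-22-3p (1487) in Exo-ADSCs. Its rank was thus close in all 3 libraries.

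Its level depended on what it was divided by. In CPM on all hairpins, predicted ones included, miR-21-5p was at 19539 and 17747 in the Exo-AT replicates (Wilson 95% intervals of the shares 1.75% to 2.19% and 1.71% to 1.84%), against 3976 in Exo-ADSCs (0.383% to 0.412%). On that scale both Exo-AT libraries lay above Exo-ADSCs, by 4.91 and 4.46 times. In CPM on named hairpins it was at 32516 and 23621 in Exo-AT, against 29248 in Exo-ADSCs, with 1 Exo-AT library above and 1 below. With TMM scaling it was at 23476 and 21855 TMM CPM in Exo-AT (mean 22666 ± 1146, SD, n = 2), against 44306 TMM CPM in Exo-ADSCs, and both Exo-AT libraries lay below. Intervals cover counting error only, as reads carry no molecular identifiers.

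**Figure D1:**
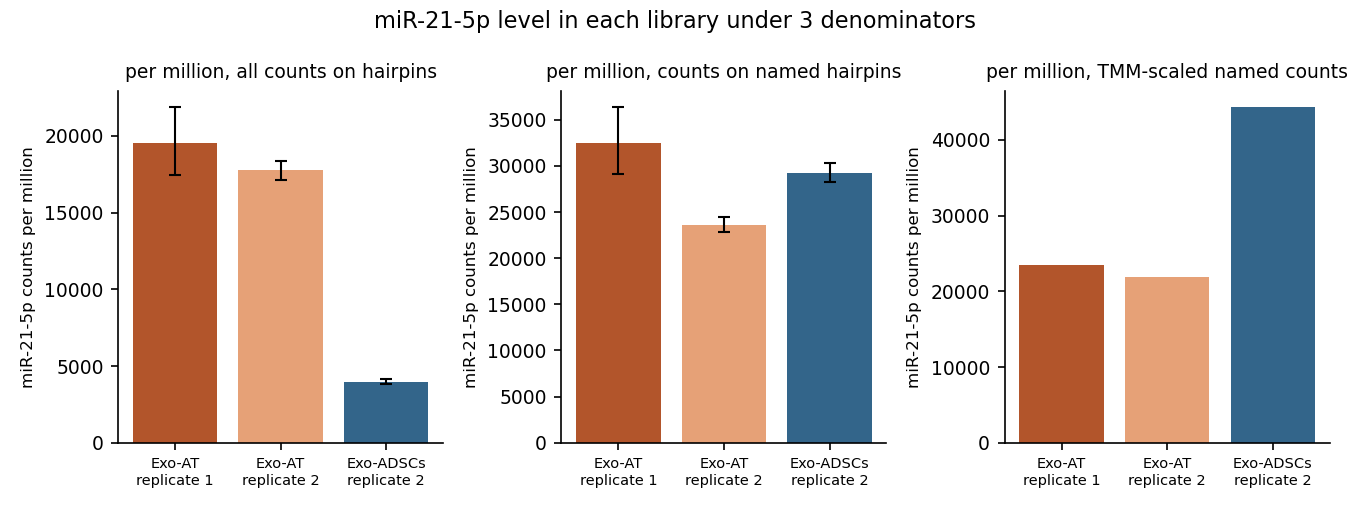
Level of miR-21-5p in each library (bars; error bars in the left and middle panels are Wilson 95% intervals) in CPM on all hairpins, in CPM on named hairpins, and in TMM CPM. Exo-AT stands above Exo-ADSCs in the left panel (19539 and 17747 against 3976), on both sides in the middle panel and below in the right panel (23476 and 21855 against 44306).

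In the fit over all 183 tested miRNAs, miR-21-5p had a log2 fold change (Exo-AT over Exo-ADSCs) of -0.97 (SE 0.27, Benjamini-Hochberg adjusted p = 0.00168, quasi-likelihood test of edgeR, 1 residual degree of freedom). Lower in Exo-AT were 35 of the 183, or 19.1%, and higher were another 35, also 19.1%. With DESeq2 size factors that of miR-21-5p was -1.22 (adjusted p = 0.0331, edgeR), with total-count scaling -0.07 (adjusted p = 0.908), and with scaling to all counts on hairpins 2.23 in the other direction (adjusted p = 1.95e-08, called higher in Exo-AT). The median log2 fold change of all 183 moved alongside, with 0.37, 0.08, 1.21 and 3.55 under these 4 scalings. Measured from that median, miR-21-5p stood at -1.34, -1.30, -1.28 and -1.32. In the order of log2 fold changes it ranked 52, 54, 54 and 52 from the lowest of 183. A scaling moves all miRNAs almost alike, so these distances and ranks could hardly differ and show no stability, while the sign of the fold change did differ. Settings that change the counts or features did move the distance, to -0.57 with no expression filter, -0.80 with predicted hairpins, -1.85 with tags without mismatch or indel, -2.35 with tags of 20 to 25 nt and -2.40 with the most common tag of each miRNA. Leaving out 1 Exo-AT library gave -0.68 (replicate 2 left out) and -1.60 (replicate 1 left out).

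**Figure D2:**
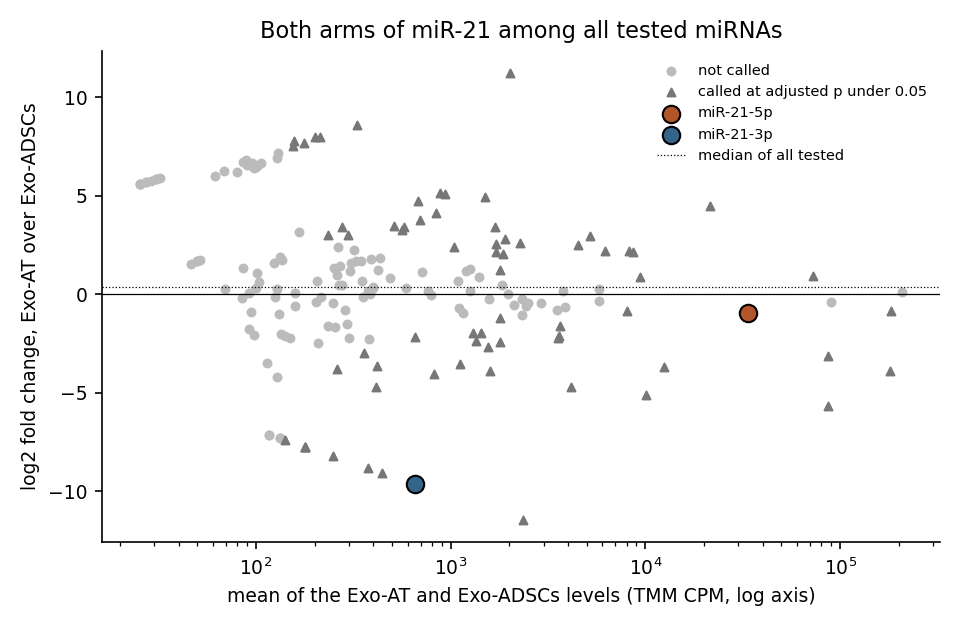
Log2 fold change (Exo-AT over Exo-ADSCs, TMM scaling) against the mean level (log axis) of the 183 tested miRNAs, with those called drawn as triangles and both arms of miR-21 as large points. miR-21-5p lies at -0.97, below the median of 0.37 (dotted line), and the fitted value of miR-21-3p, which has 0 counts in Exo-AT, depends on the prior count and is no estimate of size.

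The miRNAs with the profile most like miR-21-5p, by Euclidean distance of centred log2 TMM CPM over the 3 libraries among 48 with at least 10 counts in each, were miR-143-3p (distance 0.12), miR-423-3p (0.17), let-7f-5p (0.20), miR-221-3p (0.21) and miR-181b-5p (0.28). Of these, miR-143-3p (adjusted p = 0.00141, edgeR) and let-7f-5p (adjusted p = 0.0208, edgeR) were called lower in Exo-AT with TMM scaling. miR-143-3p, a smooth muscle and stromal miRNA, was at 139432 and 119303 TMM CPM in Exo-AT, against 235991 in Exo-ADSCs. For every 100 counts of miR-143-3p there were 16.8 and 18.3 counts of miR-21-5p in Exo-AT, against 18.8 in Exo-ADSCs, a ratio that no scaling changes. For let-7f-5p the same ratio was 437 and 364 in Exo-AT, against 426 in Exo-ADSCs, with 1 Exo-AT library above and 1 below. These miRNAs were chosen for their likeness to miR-21-5p in these same libraries. Close ratios and like calls thus followed from the choice and are no separate result.

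The 3p strand is shown by its 4 most common tags, all from Exo-ADSCs replicate 2, with the seed in capitals; they had 54, 12, 4 and 4 counts in the order printed.
tag of 21 nt: cAACAGCAgtcgatgggctgt
tag of 22 nt, last base not that of the hairpin: cAACAGCAgtcgatgggctgta
tag of 20 nt: cAACAGCAgtcgatgggctg
tag of 18 nt: cAACAGCAgtcgatgggc
In all, 0 sequences lay on the 3p strand in either Exo-AT library, against 9 sequences with 84 counts in Exo-ADSCs replicate 2. The most common 3p tag ends 1 base before the RefSeq mature end.

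miR-21-3p thus stood at 0 TMM CPM in both Exo-AT libraries, against 1309 TMM CPM in Exo-ADSCs. With 3 counts over both libraries in place of 0, the Exo-AT level of miR-21-3p was at least 69.7-fold lower in TMM CPM. Only listed tags are counted: the files list tags with at least 2 reads, so 3p sequences read once would not be seen. The bound holds for TMM scaling alone and was not computed on other scales. Divided by all counts on hairpins (15200 and 181049 in Exo-AT, against 715114 in Exo-ADSCs) it would be smaller. The bound of 69.7 rests on Exo-AT replicate 2. With 3 counts in that library alone the bound was 64.1-fold, and with 3 counts in Exo-AT replicate 1 alone it was 5.52-fold. In the edgeR fit miR-21-3p was called lower under all 4 scalings, where the 1 Exo-ADSCs library is assumed to vary like the Exo-AT libraries. It passed the expression filter only through its 84 counts in Exo-ADSCs replicate 2, and no scaling changes 0 counts. These calls thus measure no spread of miR-21-3p and add no support to the counts. With predicted hairpins added as features, the same test called 0 of 407 (27 at an unadjusted p under 0.05), and adjusted p was 0.466 for miR-21-3p and 0.638 for miR-21-5p.

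Within the hairpin the 3p strand held 0% of 297 and 0% of 3213 counts in the Exo-AT replicates (Wilson 95% intervals up to 1.28% and 0.119%), against 2.87% of 2927 counts in Exo-ADSCs replicate 2 (2.32% to 3.54%). These shares do not depend on scaling. At the share of the 1 Exo-ADSCs library, the leading 3p tag alone would give 5.48 and 59.3 counts in the Exo-AT replicates. Tags need 2 reads to be listed, and the part of that minimum and of depth in the 0 counts was not tested. With 1 Exo-ADSCs library these values describe libraries, with no test between conditions.

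Strand use was set beside the 6 other hairpins with at least 200 counts in each library. In Exo-AT replicate 2 the minor strand of miR-99b (22 counts), miR-10b (8), miR-10a (6) and miR-100 (5) was listed, and that of miR-21, miR-143 and miR-486 was not. In Exo-AT replicate 1 only that of miR-10b (3 counts) was. In Exo-ADSCs replicate 2 miR-21 had the highest minor-strand share of the 7, followed by miR-99b at 0.0322% and miR-10b at 0.0313%. Of these 7, miR-21 had minor-strand tags in Exo-ADSCs and none in either Exo-AT library. The pattern was not particular to miR-21 over all miRNAs. Without the 200-count minimum, 51 miRNAs had counts on both strands and the major strand in all 3 libraries, and 19 of them, miR-21 included, had the minor strand in Exo-ADSCs replicate 2 alone, while 15 had it in Exo-AT alone. Next to the 84 counts of miR-21-3p came miR-146b-3p (0 and 0 counts in Exo-AT, against 32 in Exo-ADSCs) and miR-103-5p (0 and 0, against 12).

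**Figure D3:**
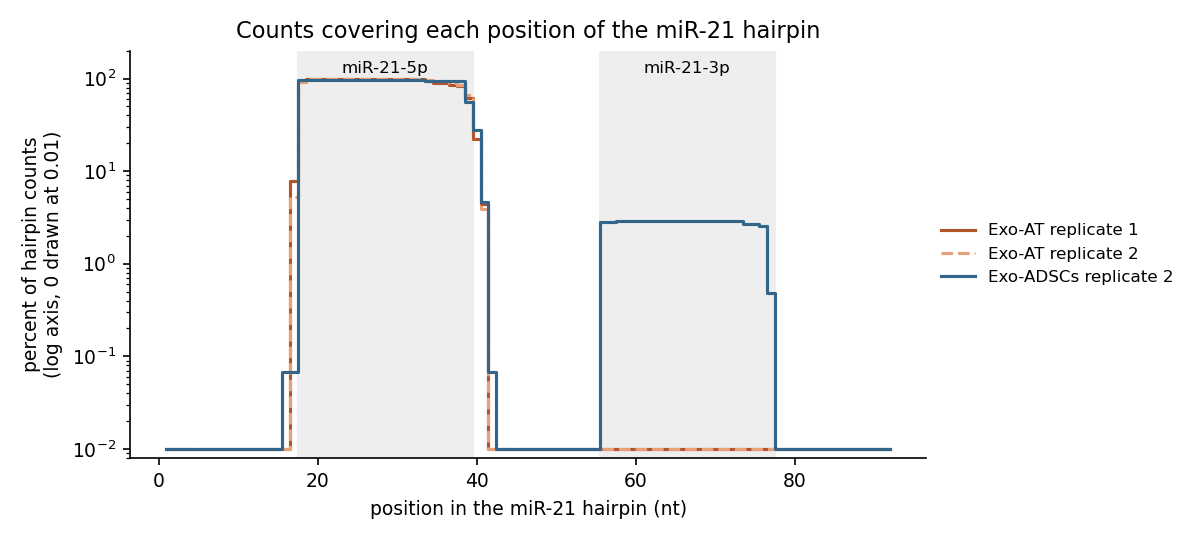
Percent of miR-21 hairpin counts in each library that cover each position (log axis, 0 drawn at 0.01), with the RefSeq mature strands shaded. All 3 libraries cover the 5p strand, and only Exo-ADSCs replicate 2 covers the 3p strand, at 2.87% of its counts. Coverage 1 base before the 5p strand is 7.74% and 5.26% in Exo-AT, against 0.0683% (2 counts) in Exo-ADSCs replicate 2.

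The forms of miR-21-5p differed between the libraries at both ends. In Exo-AT the strand was more often shifted by 1 base at its start, and its most common form had 22 nt, while in Exo-ADSCs nearly all counts kept the mature start and the most common form had 21 nt. There were 19 and 60 distinct 5p sequences in Exo-AT replicates 1 and 2, against 45 in Exo-ADSCs replicate 2. Of 88 in all, 12 were found in all 3 libraries, and these held 87.2% and 86.1% of the 5p counts in Exo-AT, against 93.1% in Exo-ADSCs. All 19 sequences of Exo-AT replicate 1 were also in Exo-AT replicate 2.

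The starts are shown on tags that end at the RefSeq mature end, with bases 2 to 8 of the tag in capitals. Substitutions are counted from 1 at the mature start, with -1 for the base before it.
mature start: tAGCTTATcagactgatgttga
1 base later: aGCTTATCagactgatgttga
1 base earlier: gTAGCTTAtcagactgatgttga
1 base earlier with G-1T: tTAGCTTAtcagactgatgttga
The tag with the mature start had 89 and 988 counts in Exo-AT, against 745 in Exo-ADSCs. The tag that starts 1 base later had 13 and 130 counts in Exo-AT, against 3 in Exo-ADSCs. The templated tag that starts 1 base earlier had 12 and 81 counts in Exo-AT, against 0 in Exo-ADSCs, and the tag with G-1T had 4 and 20, against 0. None of the 693 rat mature miRNAs had the seeds GCUUAUC or UAGCUUA that the shifted tags present.

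Over all 5p tags, the mature start held 84.2% and 85.9% of counts in Exo-AT (Wilson 95% intervals 79.6% to 87.9% and 84.7% to 87.1%), against 98.6% in Exo-ADSCs (98.1% to 99.0%). Starts 1 base later held 8.08% (5.49% to 11.7%) and 8.56% (7.64% to 9.58%) in Exo-AT, against 0.492% (0.294% to 0.825%) in Exo-ADSCs. Starts 1 base earlier held 7.74% (5.22% to 11.4%) and 5.26% (4.54% to 6.09%) in Exo-AT, against 0 of 2843 counts in Exo-ADSCs. These Exo-AT shares include tags whose base at -1 is not that of the hairpin. They are G-1T with 7 and 39 counts and G-1A with 0 and 8. In Exo-ADSCs, 23 counts with CAT before the mature start were placed at none of these starts. Intervals of the Exo-AT libraries overlapped each other at each of these starts, and none reached the Exo-ADSCs value.

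Other miRNAs with at least 50 counts in each library and a RefSeq mature sequence in their hairpin were read the same way, 14 with miR-21-5p. The mature start held a median of 91.7% and 86.9% of their counts in Exo-AT replicates 1 and 2, against 89.4% in Exo-ADSCs replicate 2. miR-21-5p ranked eleventh from the highest of 14 in each Exo-AT library and 3 from the highest in Exo-ADSCs. Starts 1 base later had a median of 4.65% and 5.41% in the others in Exo-AT, against 0.882% in Exo-ADSCs, so the low value in Exo-ADSCs was shared by others. Starts 1 base earlier had a median of 3.10% and 5.01% in the others in Exo-AT, against 0.591% in Exo-ADSCs. miR-143-3p was like miR-21-5p, with 87.6% and 86.4% at the mature start in Exo-AT, against 98.9% in Exo-ADSCs. Its starts 1 base later held 9.35% and 9.74%, against 0.244%. Other miRNAs differed, such as miR-25-3p with 92.2% and 92.8% at the mature start in Exo-AT, against 89.4%. The shift was thus not particular to miR-21-5p, and its size beside other miRNAs was not tested.

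**Figure D4:**
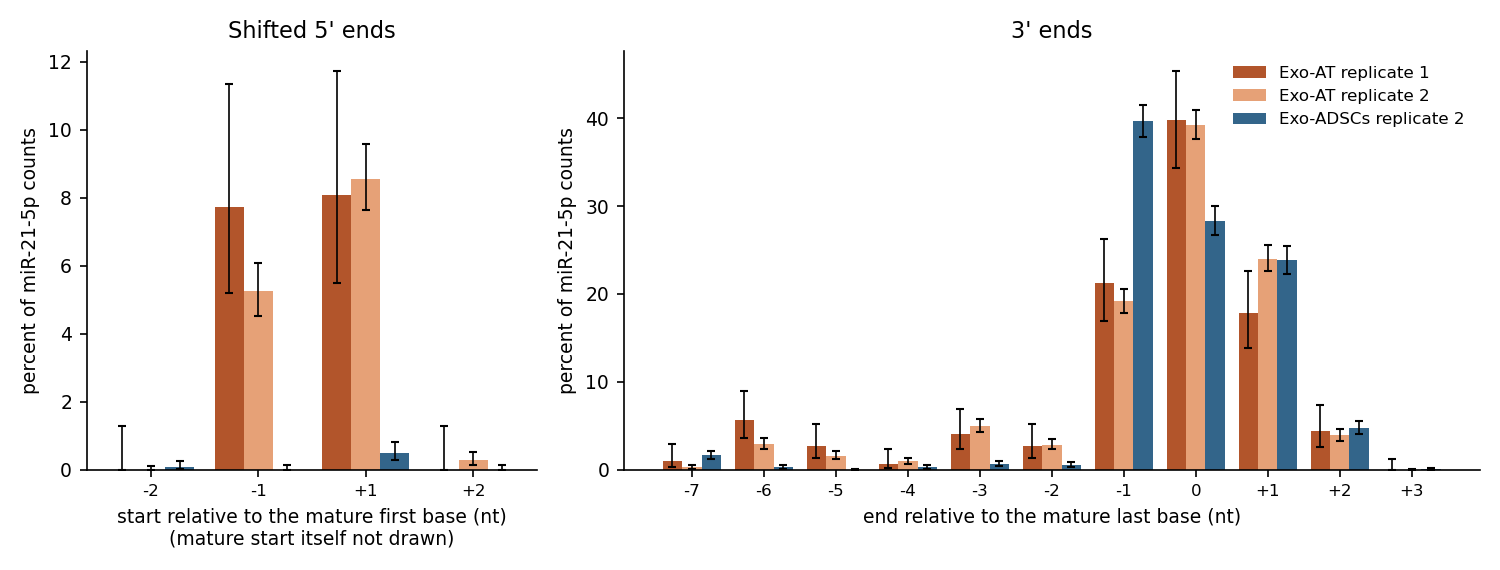
Percent of miR-21-5p counts in each library by the start of the tag relative to the mature first base (left; the mature start is not drawn) and by its end relative to the mature last base (right), with Wilson 95% intervals. Starts at -1 and +1 stand at 5.26% to 8.56% in Exo-AT and at 0% and 0.492% in Exo-ADSCs, and the end at -1 is the highest in Exo-ADSCs (39.6%) while the end at 0 is the highest in Exo-AT.

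The 3′ ends are shown on tags with the mature start, with the bases after position 21 in capitals or, in tags up to that length, the last base.
21 nt: tagcttatcagactgatgttG
22 nt: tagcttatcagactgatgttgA
23 nt: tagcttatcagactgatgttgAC
24 nt: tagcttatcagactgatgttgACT
19 nt: tagcttatcagactgatgT
16 nt: tagcttatcagactgA
The tag of 21 nt had 51 and 517 counts in Exo-AT, against 1071 in Exo-ADSCs, where it was the leading tag (37.7% of 5p counts). The tag of 22 nt, the RefSeq form, led in Exo-AT with 30.0% and 30.8% of 5p counts, against 26.2% in Exo-ADSCs. The tag of 23 nt had 48 and 642 counts in Exo-AT, against 631 in Exo-ADSCs. The tag of 19 nt had 12 and 145 counts in Exo-AT, against 19 in Exo-ADSCs, and the tag of 16 nt had 17 and 94 counts in Exo-AT, against 8 in Exo-ADSCs.

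Ends 1 base before the mature end held 21.2% (Wilson 95% interval 16.9% to 26.2%) and 19.2% (17.8% to 20.6%) of 5p counts in Exo-AT, against 39.6% (37.9% to 41.5%) in Exo-ADSCs. The mature end held 39.7% (34.3% to 45.4%) and 39.2% (37.6% to 40.9%) in Exo-AT, against 28.3% (26.7% to 30.0%) in Exo-ADSCs. Ends beyond it held 22.2% and 27.9% in Exo-AT, against 28.6% in Exo-ADSCs, and there the Wilson 95% intervals of both Exo-AT libraries overlapped that of Exo-ADSCs.

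By length, 15 to 19 nt held 14.1% and 11.3% of miR-21-5p counts in Exo-AT, against 2.88% in Exo-ADSCs. Lengths of 21 to 23 nt held 77.8% (72.7% to 82.1%) and 80.8% (79.4% to 82.2%) in Exo-AT, against 90.5% (89.3% to 91.5%) in Exo-ADSCs. Pooled over the other named miRNAs the order was the other way, with 71.2% and 75.7% of counts at 21 to 23 nt in Exo-AT, against 22.8% in Exo-ADSCs. Of 17 miRNAs with at least 50 counts in each library, miR-21-5p had the lowest difference in that share, -11.2 percentage points (mean of Exo-AT minus Exo-ADSCs), where the median of the others was 29.1 and the highest 84.3. let-7f-5p (73.5% and 73.6% in Exo-AT, against 80.2% in Exo-ADSCs) and let-7i-5p (88.1% and 86.6%, against 92.1%) also had lower shares in both Exo-AT libraries, so miR-21-5p was 1 of 3 such miRNAs. In Exo-ADSCs the median share of the others was 25.3%, and only 1 of these 17 had a higher share at 21 to 23 nt than miR-21-5p. Counting tags of 20 to 25 nt alone, miR-21-5p had a log2 fold change of -1.98 (adjusted p = 0.00508, edgeR).

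Tags aligned without mismatch or indel held 95.6% (Wilson 95% interval 92.7% to 97.4%) and 93.3% (92.4% to 94.2%) of 5p counts in Exo-AT, against 92.5% (91.5% to 93.5%) in Exo-ADSCs, and the intervals overlapped. Over the other named hairpins the same share was 79.9% and 76.7% in Exo-AT, against 76.4% in Exo-ADSCs. The place of the differences was not the same in the libraries. A substituted first base of the tag was found in 2.36% (1.15% to 4.78%) and 2.15% (1.70% to 2.71%) of 5p counts in Exo-AT, against 0.0703% (0.0193% to 0.256%) in Exo-ADSCs. Inside the tag it was 0.673% (0.185% to 2.42%) and 2.52% (2.03% to 3.12%) in Exo-AT, against 3.59% (2.96% to 4.34%) in Exo-ADSCs.

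The leading substitution at the start was G-1T, with 7 and 39 counts in Exo-AT, against 0 in Exo-ADSCs. T1C had 0 and 18 counts in Exo-AT, against 0 in Exo-ADSCs. Within the strand, G15C had 0 and 0 counts in Exo-AT, against 28 in Exo-ADSCs, all in a tag of 15 nt, where it is the last base. G15T had 0 and 6 counts in Exo-AT, against 20 in Exo-ADSCs, and G11T had 0 and 11, against 22. C9A had 0 and 0 counts in Exo-AT, against 19 in Exo-ADSCs. Exo-AT replicate 1, with 297 counts, had only A7C (2 counts) inside the tag, so low shares could not be seen there.

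At the end of the strand, T24C had 4 and 22 counts in Exo-AT, against 21 in Exo-ADSCs, and T24A had 0 and 11, against 17. These are tags of 24 nt, or shifted ones, whose last base differs from the hairpin, and they were found in both groups. A further form, with the bases CAT before the mature start, is shown with these bases in capitals.
CAT before the start: CATtagcttatcagactgatgttga
It had 0 counts in both Exo-AT libraries, against 13 in Exo-ADSCs. With a form 1 base longer, tags with CAT held 0% of counts in Exo-AT, against 0.809% (23 of 2843 counts, Wilson 95% interval 0.540% to 1.21%) in Exo-ADSCs. The same 3 bases stood before the start of tags on 0 named hairpins in Exo-AT, against 9 in Exo-ADSCs, with 176 counts in all.

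**Figure D5:**
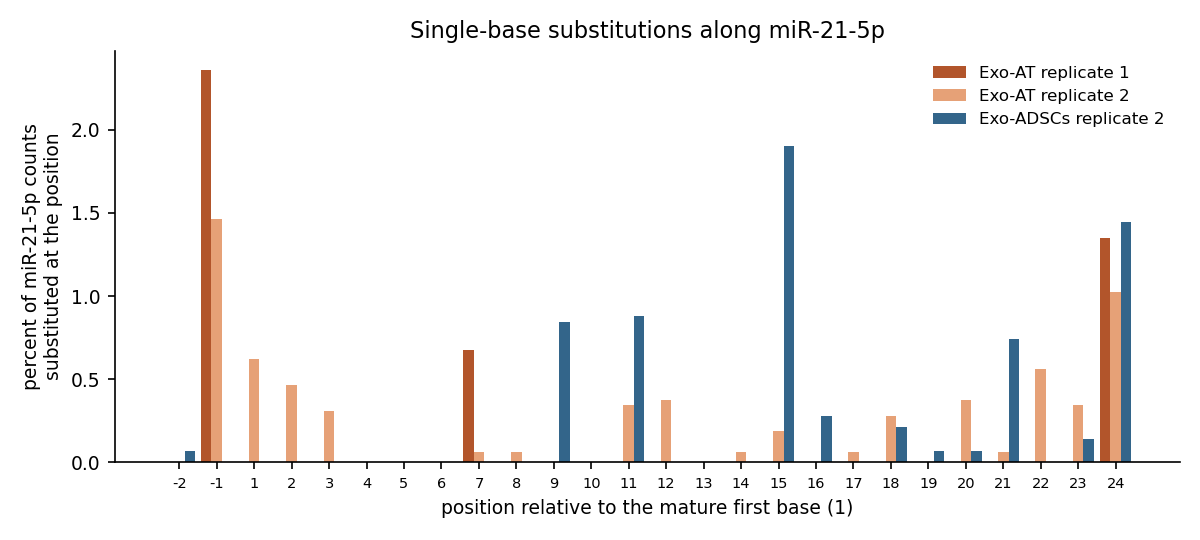
Percent of miR-21-5p counts in each library with a single substituted base, by its position relative to the mature start (1; no position 0). Bars at -1 stand in the Exo-AT libraries (7 and 39 counts of G-1T), bars at 9 in Exo-ADSCs (19 counts of C9A), and bars at 24 in all 3 libraries.

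In the authors' deposited table, miR-21-5p is listed as raised in Exo-AT, with 17472 and 5551 normalized reads in Exo-AT, against 12212 and 3956 in Exo-ADSCs replicates 1 and 2. The groups overlap in the authors' deposited table, since the second Exo-AT value is below the first Exo-ADSCs value. That second Exo-AT value equals the leading tag alone, and all tags at its factor would give 18524, above both Exo-ADSCs values. The fold of the authors' deposited table is 1.42, from means of 11512 and 8084 normalized reads (Exo-AT, Exo-ADSCs) with 10 added to each. The choice of the table's 45 miRNAs as raised fixed this direction, and there is no test.

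The values of the authors' deposited table could be traced to tags for many of the miRNAs in 3 of its 4 columns. For miR-21-5p, 17472 in the authors' deposited table is 5.44 times the 3213 counts of all tags in the file labelled Exo-AT replicate 2. The 5551 of the authors' deposited table is 62.4 times the 89 counts of the leading tag in the file labelled Exo-AT replicate 1, where all 297 counts at that factor would give 18524. The 3956 of the authors' deposited table is 1.39 times the 2843 counts of Exo-ADSCs replicate 2, and 16 of 32 miRNAs of that column share this factor within 1%. With a scale of CPM, these factors stand for totals of 183795, 16033 and 718577, near the counts on all hairpins of the same files (181049, 15200 and 715114). In CPM on all hairpins, miR-21-5p was higher in both Exo-AT tag files than in Exo-ADSCs replicate 2.

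Other miRNAs known for roles in fibrosis, hypoxia or inflammation were read beside miR-21 (miR-29a, miR-29b, miR-29c, miR-34a, miR-146a, miR-155, miR-192, miR-199a, miR-210 and miR-214). Of 12 forms with counts 9 were tested, and 0 were higher and 4 lower in Exo-AT with TMM scaling, against the 19.1% of all tested in each direction. The median log2 fold change of the 9 was -1.19, and 0.37 over all 183. miR-210-3p, the classic hypoxia miRNA, was at 237 and 320 TMM CPM in Exo-AT, against 7979 in Exo-ADSCs (log2 fold change -4.72, SE 0.44, adjusted p = 5.09e-20, edgeR). miR-214-3p, a mesenchymal miRNA, was at 79.0 and 95.2 TMM CPM in Exo-AT, against 1558 in Exo-ADSCs, and miR-192-5p, best known from gut and kidney, was at 553 and 354, against 2665. miR-146a-5p, induced by NF-κB, was at 237 and 1721 TMM CPM in Exo-AT, against 2603 in Exo-ADSCs. The antifibrotic miR-29a-3p was at 1107 and 1728 TMM CPM in Exo-AT, against 1730 in Exo-ADSCs (adjusted p = 0.747, edgeR). Other members went the other way without being called. miR-155-5p had 2 and 27 counts in Exo-AT, against 0 in Exo-ADSCs (adjusted p = 0.157, edgeR). miR-199a-5p was at 1739 and 1857 TMM CPM in Exo-AT, against 982 in Exo-ADSCs (adjusted p = 0.206, edgeR).

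The calls of these 9 forms followed the scaling. With DESeq2 size factors 0 were higher and 3 lower (12.6% and 16.4% of all tested), and with total counts 1 was higher (miR-199a-5p) and 3 lower (25.1% and 10.4%). With scaling to all counts on hairpins 5 were higher and 1 lower (59.6% and 2.73%). miR-210-3p was called lower under all 4 scalings. miR-214-3p and miR-192-5p were called lower under 3, and with all counts on hairpins had log2 fold changes of -0.89 (adjusted p = 0.481, edgeR) and 0.52 (adjusted p = 0.497, edgeR). miR-146a-5p was called lower with TMM alone, and with all counts on hairpins it was called higher (log2 fold change 1.98, adjusted p = 6.00e-04, edgeR). miR-29a-3p was also called higher on that scale (log2 fold change 2.95, adjusted p = 3.32e-07, edgeR). So were miR-155-5p (adjusted p = 0.00267, edgeR), miR-199a-5p (adjusted p = 1.41e-11, edgeR) and miR-199a-3p (adjusted p = 1.16e-08, edgeR).

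The epithelial list (miR-200a, miR-200b, miR-200c, miR-141 and miR-205), miRNAs that mark epithelia, had 4 tested forms, of which 1 was higher and 0 lower in Exo-AT with TMM scaling, near the 19.1% of all tested. With DESeq2 size factors 0 were higher, with total counts 1, and with all counts on hairpins 3 (59.6% of all tested), and 0 were lower under each. miR-205-5p, the form called with TMM scaling, had 5 and 46 counts in Exo-AT, against 0 in Exo-ADSCs, and was not called with DESeq2 size factors. It entered the test through its Exo-AT counts alone, so its call measures no spread in Exo-ADSCs. miR-200a-3p was at 632 and 320 TMM CPM in Exo-AT, against 140 in Exo-ADSCs, short of the threshold. The list summed to 1423 and 1068 TMM CPM in Exo-AT, against 452 in Exo-ADSCs, below the level of miR-21-5p in every library.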

How the data were processed

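Small RNA tags of 3 libraries and a table of 45 miRNAs in 4 libraries were used. The authors deposited whole-number counts per tag and hairpin, per the file headers, and Novoalign 2.07.11 and rn6 are named in the submitters' processing notes. For adaptor trimming and the miRNA reference, the sources used here give nothing. The authors' deposited table gives normalized reads and their means (a score, as the factor is not stated) and a fold, which is a ratio. The file of Exo-ADSCs replicate 1 names no miRNA and was not used. Counts were summed per mature form of each named hairpin, with the arm set by the tag's midpoint and positions corrected for the 5 bases the files count before a hairpin. The test was edgeR 4.0.16 (R 4.3.3, quasi-likelihood, two-sided) and TMM (factors of 1.39 and 1.08 in Exo-AT, 0.664 in Exo-ADSCs). edgeR's default filter (minimum count 10, minimum total 15) left 183 miRNAs, with p-values adjusted over these by Benjamini-Hochberg and called at 0.05. The lone Exo-ADSCs library is assumed to vary like the Exo-AT libraries, with 1 residual degree of freedom. SE is the log2 fold change over the root of F. Shares have Wilson 95% intervals. Alternatives were DESeq2 1.42.0, limma 3.58.1, other scalings and other tag sets. The code was tested on simulated counts. Named miRNAs were both arms of miR-21, those that share its seed, the stress and fibrosis list and the epithelial list, the 5 nearest profiles, the neighbours in rank, and the leading tags. Members and lists were chosen with earlier results of these data known.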

Additional observations from a re-analysis of the deposited data

How the results depend on the processing

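No paired analysis was possible because the labels state no pairing between libraries of the groups, and tag counts of Exo-ADSCs rest on 1 library. For miR-21-5p the log2 fold change (-0.97) kept its direction and its call at an adjusted p under 0.05 with DESeq2 size factors, no expression filter, limma voom, tags of 20 to 25 nt and tags without mismatch or indel. It was not called with total-count scaling (-0.069), the DESeq2 Wald test (-1.22), the most common tag of each miRNA only (-0.45) or predicted hairpins included (-0.97), and it reversed with scaling to all counts on hairpins (2.23). Leaving out each Exo-AT library in turn gave -1.02 to -0.88 for miR-21-5p and -6.13 (without Exo-AT replicate 1) to -4.70 (without Exo-AT replicate 2) for miR-21-3p, with no test, where the fitted values of miR-21-3p rest on the prior count. miR-21-3p lost its call only with predicted hairpins included (-9.60), but its calls rest on 1 Exo-ADSCs library against 0 counts in Exo-AT and measure no spread. Calls higher in Exo-AT (35) were 23 with DESeq2 size factors, 22 with the DESeq2 Wald test, 0 with predicted hairpins (27 of 407 at an unadjusted p under 0.05) and 109 with all counts on hairpins. Calls lower (35) were 19 with total counts, 21 with the DESeq2 Wald test, 18 with the most common tag, 0 with predicted hairpins and 5 with all counts on hairpins. With tags of at least 10 counts only, the share at 21 to 23 nt was 88.0% in Exo-AT replicate 1, the share at the mature start was 89.7% and 88.1% in Exo-AT, and the share without mismatch or indel was 100% and 96.7% in Exo-AT, against 95.2% in Exo-ADSCs. With tags without mismatch or indel only, the share at 21 to 23 nt was 93.3% in Exo-ADSCs. Replicates of the authors' deposited table are named here by its column heads, which go against the file labels for Exo-AT, and its Exo-AT replicate 2 value of 5551 equals the leading tag alone, where all tags at the same factor would give 18524. The ratio of the authors' deposited table was 4.42 for Exo-AT replicate 1 over Exo-ADSCs replicate 2 and 0.455 for Exo-AT replicate 2 over Exo-ADSCs replicate 1, and leaving out 1 library in turn it ranged from 0.687 (without Exo-AT replicate 1) to 2.91 (without Exo-ADSCs replicate 1), with 0.943 without Exo-ADSCs replicate 2. The cause of these changes was not tested. Exo-AT replicate 1, with 297 counts on miR-21, limits what can be seen of rare forms.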
